A study of Mus musculus with 12 samples.

Results

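The expression of 5 genes of transforming growth factor beta (TGF-β) signalling was compared in blood monocytes and Kupffer cells, the resident macrophages of the liver. They were the ligand genes Tgfb1, Tgfb2 and Tgfb3, the receptor gene Tgfbr1 and the inhibitor gene Smad7, chosen by name among the 248 inflammation-related genes tested on the nCounter Mouse Inflammation V2 panel, and all 5 were found with a value in each of the 12 samples. In this nanostring approach a pair of probes hybridises to each mRNA and the colour code of the reporter probe is counted molecule by molecule, without amplification. The groups, named MNC and KC in the sample titles, held 6 samples each, all from Balb/C mice with no treatment or genetic change named in the labels. Sorted cells of 5 mice per sample by the labels (of 4 to 5 by the study's methods) had been pooled, and 100 ng of total RNA went into a reaction. Monocytes came from blood separated on Ficoll and Kupffer cells from livers digested with collagenases, and both were sorted on magnetic beads against the macrophage surface protein F4/80. The labels do not say whether pools were prepared on separate days, so the p-values below measure the spread between these pools.

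TGF-β proteins are secreted in a latent complex and become active when they are released from it. The active ligand binds the type II receptor, which recruits and phosphorylates the type I receptor encoded by Tgfbr1, and this kinase phosphorylates the Smad proteins that enter the nucleus. Smad7 is itself induced by this pathway and blocks it at the type I receptor, and the same receptors also feed non-Smad branches through TAK1, the MAP kinases and small GTPases. In the liver, TGF-β is known for turning stellate cells into matrix-producing cells and for holding back inflammatory gene expression in macrophages. The genes of the type II receptor and of the other Smad proteins were not analysed here.

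Among the 3 ligand genes, Tgfb2 was measured at 567 to 1017 normalized counts in the monocyte samples and at or near the background in all Kupffer cell samples. Tgfb3, near the background in monocytes, was 2.00-fold higher in Kupffer cells on the deposited scaling, and Tgfb1 was well above the background in both cell types with no difference that passed the test. Tgfbr1 was 1.47-fold higher and Smad7 1.45-fold lower in Kupffer cells, but unlike those of the ligands Tgfb2 and Tgfb3 these calls depended on the scaling between samples. In all, 4 of the 5 genes passed the test (limma on log2 values, Benjamini-Hochberg adjusted p under 0.05 over all 248 genes), 2 higher and 2 lower in Kupffer cells. Of all genes tested, 56.5% passed, 35.1% as higher and 21.4% as lower, so that most of the panel differed between the cell types and the share of TGF-β genes called is to be read against that. Values of monocytes and Kupffer cells were separate, with no overlap, for 2 of the 5 genes and for 41.5% of all genes. The median log2 fold change was -0.21 over the 5 genes and 0.05 over all genes.

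The panel could check the cell labels only in part. Of the 7 Kupffer cell markers listed, 1 was on the panel, the scavenger receptor gene Cd163, which was higher in Kupffer cells (log2 fold change 1.11, limma adjusted p = 0.00691) with overlapping samples. Of the monocyte markers, Ccr2 did not pass the test (log2 fold change -0.16) and Itgb2 was lower in Kupffer cells. All 11 hepatocyte genes were higher in Kupffer cells, where they summed to 4808 to 15847 normalized counts per sample, against 80.0 to 297 in monocytes, where 7 of the 11 were at the background in every sample. The 5 genes listed here for resident peritoneal macrophages, Retnla and Alox15 among them, were all lower in Kupffer cells. Their sums were 25342 to 40852 (monocytes) and 1498 to 4115 (Kupffer cells). Like the other lists, this one was chosen with earlier results of these data known, so its direction is not an independent result. T and NK cell genes, of which 7 of 11 were called higher, had sums of 806 to 1250 (monocytes) and 1700 to 2581 (Kupffer cells). In such sorted bulk samples, fewer cells of a type and less RNA per cell cannot be told apart.

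The factor applied to each lane ranged from 0.554 to 1.13 for monocytes and from 1.30 to 2.17 for Kupffer cells, so that a normalized count stood for fewer counted molecules in Kupffer cells. Over the 248 genes, a monocyte lane counted 158860 to 341233 molecules and a Kupffer cell lane 81224 to 140290. The background of a lane was its highest negative control, and a gene not above it is listed at that number, which was 5 to 27 (monocytes) or 7 to 14 (Kupffer cells). In Kupffer cells such a listed value becomes an upper limit for the gene only once the factor is applied, at 11.7 to 30.4, whereas in monocyte lanes other than that of sample 2 the listed value is itself the upper limit. Since each probe pair has its own efficiency, the level of one gene was not compared with that of another within a cell type.

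**Figure D1:**
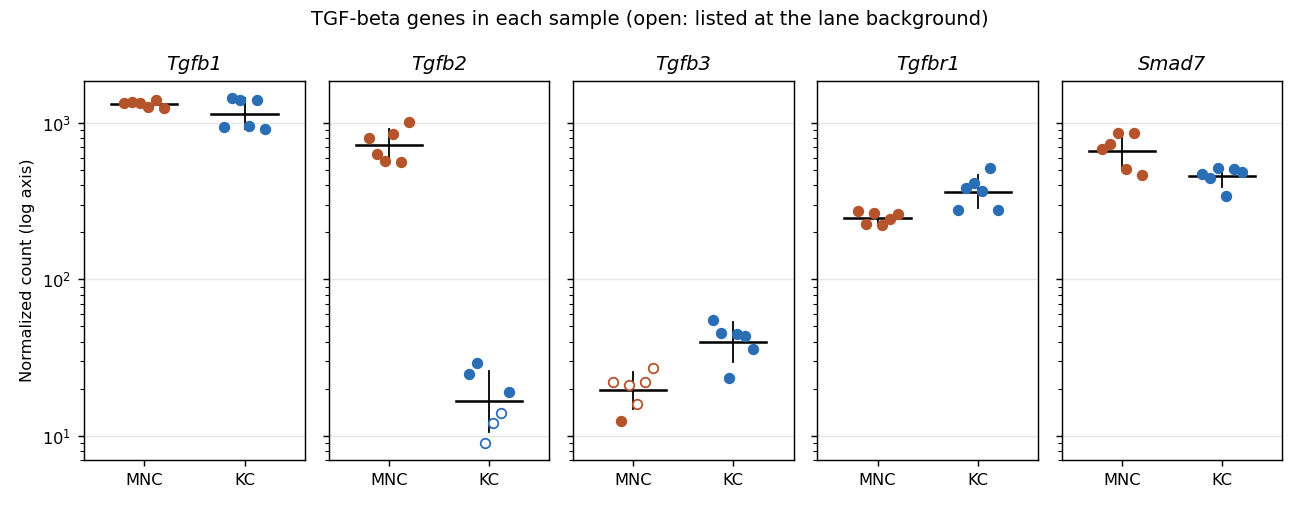
Normalized count (log axis) of each TGF-β gene in the 6 monocyte (MNC) and 6 Kupffer cell (KC) samples. Points are samples, open points are values listed at the background of the lane, horizontal bars are geometric means of value + 1 less 1, and vertical lines span 1 SD of the log2 values to either side. Tgfb2 separates the cell types by the widest margin, while the Tgfb1 samples overlap.

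Tgfb2 encodes the ligand best known from embryonic development, which needs a co-receptor for tight binding to the type II receptor. In monocyte samples 1 to 6 its normalized counts were 801, 634, 571, 850, 567 and 1017, from 563 to 1838 counted molecules. In Kupffer cell samples 1, 2 and 6 they were 24.8, 29.2 and 19.0, from 19, 16 and 9 molecules, and in samples 3, 4 and 5 the gene was listed at the background of 9, 12 and 14. Every monocyte value was thus far above every Kupffer cell value, and of the 3 Kupffer cell samples with a measured value, samples 2 and 6 lay just over the background counts of their lanes (14 and 7) and sample 1 further above (9). The monocyte mean was 740.0 ± 180.4 (SD, n = 6). The log2 fold change was -5.36 (SE 0.27, 95% interval -5.93 to -4.78, limma adjusted p = 1.25e-09), the rank 8 among the 248 absolute log2 fold changes. With the 3 background samples at their upper limits, the estimate on the deposited scaling was 29.0-fold lower in Kupffer cells (log2 fold change -4.86, 95% interval -5.27 to -4.45). This takes the listing of the background into account but is not a bound on the spread between pools.

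Tgfb1 encodes the main ligand made by leukocytes. Its normalized counts in monocyte samples 1 to 6 were 1348, 1364, 1347, 1269, 1406 and 1260. In Kupffer cell samples 1 to 6 they were 939, 1443, 1405, 965, 1400 and 915. The monocyte values lay within a narrow band, whereas the Kupffer cell values fell into 3 samples below all monocytes (1, 4 and 6) and 3 near or above the upper end of the monocyte range (2, 3 and 5). The SD in monocytes was 4.26% of the mean (1332 ± 56.8, n = 6), and on the log2 scale only 1 of the 160 genes above the background in all 12 samples had a smaller SD in monocytes. The SD in Kupffer cells was 22.2% of the mean (1178 ± 262, n = 6), near the middle of the panel, with 68 of the 160 genes having a smaller one on the log2 scale. The log2 fold change of -0.21 (SE 0.15, 95% interval -0.53 to 0.12) did not pass the test (limma adjusted p = 0.235). The interval leaves room for a fall as well as for a small rise, and the absolute log2 fold change ranked 218 of 248. Rescaled to the median gene of each sample, or by quantile normalization, Tgfb1 was called lower in Kupffer cells (log2 fold change -0.47 and -0.30, limma adjusted p = 0.0220 and 0.0208).

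The spread of Tgfb1 in Kupffer cells ran opposite to that of Gapdh, 1 of the genes the lanes had been scaled by. In Kupffer cell samples 1 to 6 Gapdh had 4159, 2289, 2159, 2741, 2395 and 4084 normalized counts, against 1631 to 1767 in monocytes. Samples 1, 4 and 6 were thus the highest for Gapdh and the lowest for Tgfb1. They were also the lowest Kupffer cell samples for Grb2, Ccr7 and H2-Ea-ps, named here after their values were seen. The split was therefore not particular to Tgfb1, and how many genes of the panel show it was not counted. The other housekeeping genes with deposited values were Cltc, Gusb and Pgk1, a part of those the study's methods name. When the lanes were scaled by these, Tgfb1 was 971, 1461, 1439, 948, 1505 and 1001 in the same samples, so the same 3 samples were low. Of the genes kept in that scaling, Pgk1 was also highest in samples 1, 4 and 6 (386, 206, 267, 338, 243 and 296 in samples 1 to 6), and Gusb was lowest in samples 1 and 6 (244, 409, 359, 331, 343 and 258). The part of these differences between the pools in the spread of Tgfb1 was not tested.

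The sequences around the starts of Tgfb1 and Tgfb2 are shown because these are the ligand genes with the least and the most different expression between the cell types. Each runs from 250 bases before to 50 bases after a start given in the RefSeq promoter table (GRCm38.p6), 5′ to 3′ on the strand of the gene, with capitals for matches to the motifs searched. For Tgfb1 this is chr7:25686752-25687051 on the plus strand, and for Tgfb2 chr1:186705940-186706239 on the minus strand. The start used for Tgfb1 is the outermost start of the annotated gene, while that used for Tgfb2 lies 3708 bases inside the outermost start. The motifs, read on both strands, were the TATA box (TATAAA), the GC box bound by Sp1 (GGGCGG), the E-box (CACGTG), the cAMP response element (TGACGTCA) and the AP-1 site (TGACTCA), and no match overlapped another.
Tgfb1: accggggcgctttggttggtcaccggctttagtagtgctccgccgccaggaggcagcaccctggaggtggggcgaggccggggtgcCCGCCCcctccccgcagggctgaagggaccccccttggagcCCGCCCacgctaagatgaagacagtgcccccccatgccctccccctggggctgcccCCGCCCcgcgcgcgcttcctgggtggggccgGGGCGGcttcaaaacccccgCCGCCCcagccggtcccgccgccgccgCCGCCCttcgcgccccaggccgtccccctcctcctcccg
Tgfb2: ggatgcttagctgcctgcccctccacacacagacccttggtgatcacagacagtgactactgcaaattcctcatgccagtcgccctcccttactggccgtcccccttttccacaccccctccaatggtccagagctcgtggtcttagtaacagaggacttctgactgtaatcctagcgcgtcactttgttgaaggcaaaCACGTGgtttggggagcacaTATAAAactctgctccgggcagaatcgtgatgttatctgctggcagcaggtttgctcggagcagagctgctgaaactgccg
The Tgfb1 sequence held 6 GC boxes and no TATA box and was 77% G and C. The Tgfb2 sequence held a TATA box beginning at position -31 and an E-box at -51 relative to the start used, no GC box, and was 54.3% G and C. Neither held a cAMP response element or an AP-1 site in these letters. Over all 32851 such promoters of the annotation, 35.7% held a GC box, 13.6% a TATA box, 7.15% the E-box, 1.79% the cAMP response element and 5.2% the AP-1 site, and the median content of G and C was 52.7%. These matches describe the letters only, and no binding of a factor was measured here.

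Tgfb3, which lies on chromosome 12 (86056743 to 86079041), encodes a ligand known from wound healing and palate development. In monocyte samples 1 and 3 to 6 it was listed at the background of 22, 21, 16, 22 and 27. Sample 2, the lane with the lowest background, gave the only measured monocyte value, 12.4 normalized counts from 11 molecules. In Kupffer cell samples 1 to 6 the normalized counts were 54.8, 45.7, 23.4, 44.6, 43.5 and 35.9, from 42, 25, 12, 21, 20 and 17 molecules, all above the background. The groups overlapped only because Kupffer cell sample 3 lay under the listed background of monocyte sample 6. The log2 fold change was 1.00 (SE 0.22, 95% interval 0.52 to 1.48, limma adjusted p = 0.00156), a 2.00-fold difference. The 5 listed monocyte values are upper limits, so on this scaling the listing of the background can only have made the fold smaller. The background was not subtracted from measured values, however, and in Kupffer cell samples 1 to 6 it was 9, 14, 9, 12, 14 and 7 molecules. Counts that are background in part would make the fold larger, so 2.00 is not a lower bound. Rescaling to the median gene gave a log2 fold change of 0.75 and leaving out monocyte sample 2 one of 0.88, both still called. Both groups stood at few molecules, which limits how precisely the size of this difference is known. Flt1, the only endothelial marker on the panel, was also higher in Kupffer cells, as were the hepatocyte genes above. It was at the background in 5 monocyte samples and at 52.2 to 151 normalized counts in Kupffer cells. The part of endothelial cells and hepatocytes in the level of Tgfb3 was not tested. The stellate cell and fibroblast markers on the panel, Twist2 and Mmp3, were at the background in all Kupffer cell samples.

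Tgfbr1 (chromosome 4, 47353222 to 47414926) encodes the type I receptor kinase, through which all 3 ligands signal. Its normalized counts were 273, 225, 267, 222, 243 and 262 in monocyte samples 1 to 6. They were 277, 384, 415, 370, 517 and 279 in Kupffer cell samples 1 to 6. All Kupffer cell samples were above all monocyte samples, but Kupffer cell samples 1 and 6 lay just over the highest monocyte sample. The mean was 249 ± 22.0 in monocytes and 374 ± 90.4 in Kupffer cells (SD, n = 6 each), with a log2 fold change of 0.56 (SE 0.16, 95% interval 0.21 to 0.90, limma adjusted p = 0.00967). Rescaling to the median gene lowered the log2 fold change to 0.29 (limma adjusted p = 0.147) and quantile normalization to 0.09 (limma adjusted p = 0.570), and in both the call was lost. The hepatocyte, T and NK cell genes above were also higher in Kupffer cells, and their part in this difference was not tested.

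Smad7, on chromosome 18 (75367365 to 75395935), encodes the inhibitory Smad that binds the type I receptor and brings ubiquitin ligases to it. Its normalized counts in monocyte samples 1 to 6 were 679, 733, 864, 510, 862 and 466. In Kupffer cell samples 1 to 6 they were 476, 446, 514, 340, 509 and 490. The highest 4 samples were monocytes, while monocyte samples 4 and 6 lay within the Kupffer cell range. The mean was 686 ± 170 in monocytes and 463 ± 65.0 in Kupffer cells (SD, n = 6 each), with a log2 fold change of -0.54 (SE 0.18, 95% interval -0.93 to -0.15, limma adjusted p = 0.0223). The call was lost without monocyte sample 3 (limma adjusted p = 0.0523), without monocyte sample 5 (0.0531) and with the lanes scaled without Gapdh (log2 fold change -0.44, limma adjusted p = 0.0810). Under the scalings that ended the call for Tgfbr1 it was held, at -0.80 for the median gene and -0.86 for quantile normalization.

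**Figure D2:**
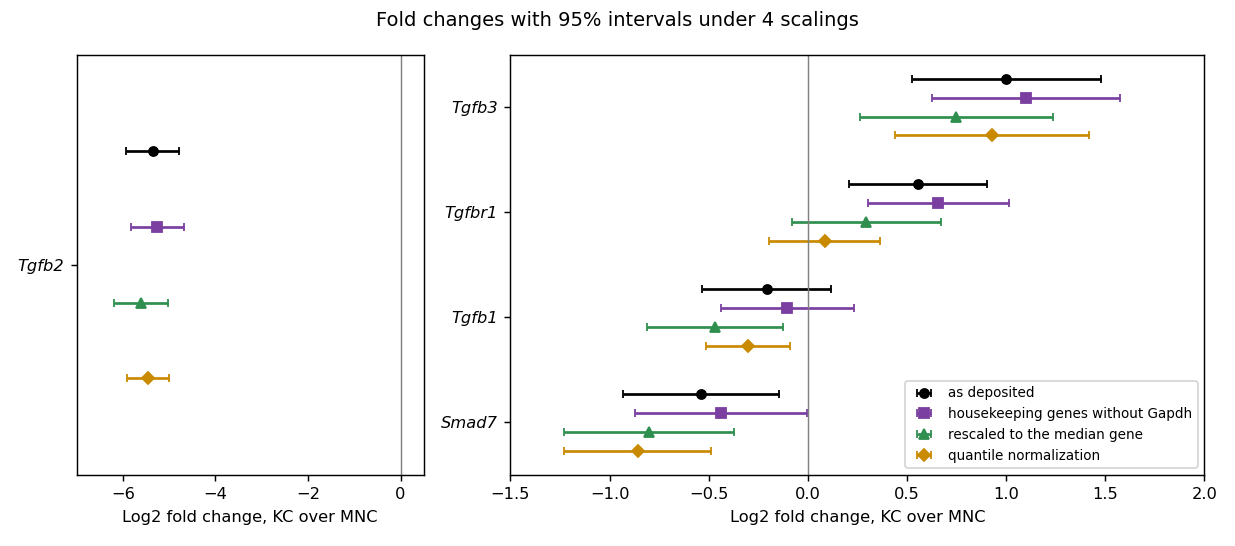
Log2 fold change of each TGF-β gene, Kupffer cells (KC) over monocytes (MNC), with the 95% interval from limma, for the deposited values and for 3 other scalings of the samples. The axis of Tgfb2 is drawn apart because its change is far larger. Intervals of Tgfb2 and Tgfb3 stay on 1 side of 0 under each scaling shown, while those of Tgfbr1 and Tgfb1 reach 0 under some.

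When both genes are above the background, the ratio between them within a sample does not depend on the factor of the lane, and the efficiency of each probe cancels when a ratio is compared between cell types. Each of 4 such ratios was compared by an exact permutation test over the 924 assignments of the samples to 6 and 6 (two-sided, smallest possible p = 0.00216), with adjustment over the 4 ratios. The log2 ratio of Tgfb1 over Tgfb2 was 0.88 ± 0.40 in monocytes and 6.03 ± 0.73 in Kupffer cells (SD, n = 6 each), a difference of 5.15 with no overlap, with Tgfb2 at the background in 3 Kupffer cell samples (exact permutation p = 0.00216, adjusted 0.00289). It was 4.65 with background values at their upper limits. The log2 ratio of Tgfb3 over Tgfb2 differed by 6.36 with no overlap (same exact p), and by 5.86 at the upper limits. In that ratio 5 monocyte and 3 Kupffer cell samples held a gene at the background. The log2 ratio of Tgfb3 over Tgfb1 was higher in Kupffer cells by 1.21, with overlapping samples and Tgfb3 at the background in 5 monocyte samples (exact permutation p = 0.00433, adjusted 0.00433). The 3 ligand genes therefore differed from each other in their change between the cell types.

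The log2 ratio of the inhibitor Smad7 over the receptor Tgfbr1 was 1.43 ± 0.38 in monocytes, from 0.82 to 1.82, and 0.33 ± 0.39 in Kupffer cells, from -0.12 to 0.81 (SD, n = 6 each). The ranges came close but did not overlap, and the difference was -1.10 on the log2 scale (exact permutation p = 0.00216, adjusted 0.00289). Both genes were above the background in all samples, so that multiplying a sample by another factor leaves this ratio in place but for the added pseudocount. Quantile normalization does change it, to a difference of -0.94 with overlapping samples (exact permutation p adjusted over the 4 ratios 0.00433), an alternative added after seeing the data. Over all 16 alternatives tried, among them each sample left out in turn, the differences ran from -1.22 to -0.94 and passed the test. Of these, the background alternative could not move this ratio, and the pseudocounts of 10 and 0.5 hardly did (-1.07 and -1.10).

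**Figure D3:**
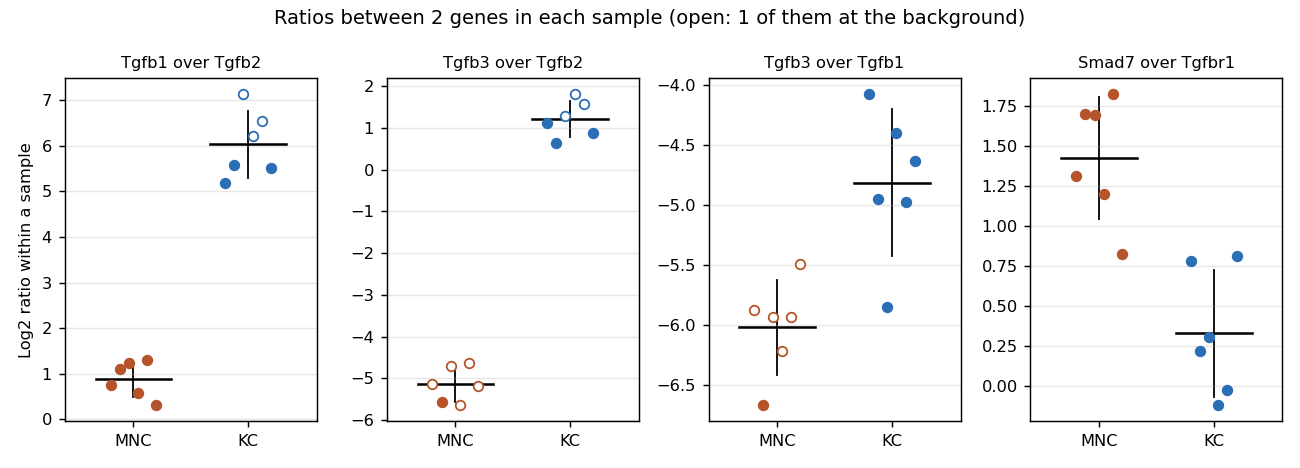
Log2 ratio of the normalized counts (each + 1) of 2 TGF-β genes within each monocyte (MNC) and Kupffer cell (KC) sample. Points are samples, open points are ratios with 1 gene at the background, horizontal bars are means and vertical lines span 1 SD to either side. The ratios of Tgfb1 and Tgfb3 over Tgfb2 and of Smad7 over Tgfbr1 do not overlap between the cell types, whereas Tgfb3 over Tgfb1 does.

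Of 20 genes of non-Smad signalling on the panel, 10 were called higher and 1 lower in Kupffer cells and 9 did not pass the test, a share called close to the 56.5% of all genes. Their median log2 fold change was 0.30, against 0.05 over all genes. After rescaling to the median gene, 5 were higher and 6 lower (median 0.04), so the direction of the list as a whole depends on the scaling. The 4 genes named next as higher, all among the 5 largest changes called, were called under every alternative tried. Map3k7, which encodes TAK1, the kinase that links TGF-β receptors to the p38 and JNK branches, rose from 386 ± 41.2 normalized counts in monocytes to 693 ± 139 (SD, n = 6 each), without overlap (log2 fold change 0.83, limma adjusted p = 0.000319). Map2k6, a kinase that activates p38, had a log2 fold change of 1.05 (limma adjusted p = 0.000338), and Atf2, a transcription factor phosphorylated by p38 and JNK, one of 0.69 (0.000237). Shc1, an adaptor of growth factor receptors, changed by 0.80 (3.24e-05). The only gene called lower was Rhoa, a small GTPase, at -0.49 (limma adjusted p = 0.00326), named here after its value was seen.

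Of 13 genes known to respond to TGF-β or to take part in its release, 6 were called higher and 2 lower in Kupffer cells, again a share called close to the 56.5% of all genes, with a median log2 fold change of -0.16 against 0.05. After rescaling to the median gene 5 were higher and 6 lower, and the 5 genes named here, those with the largest changes, were called under every alternative tried. Arg1, which encodes the arginase of alternatively activated macrophages and also of the urea cycle in hepatocytes, had a log2 fold change of 2.97 (limma adjusted p = 2.74e-06). All 11 hepatocyte genes were higher in Kupffer cells too, with a median log2 fold change of 4.91, and their part in the level of Arg1 was not tested. The transcription factor genes Jun and Fos had 2.31 (8.75e-07) and 1.96 (1.07e-06). Alox5, the lipoxygenase of leukotriene synthesis, was lower at -2.51 (8.11e-08), as was the cytokine gene Il6 at -1.99 (7.88e-05). Fos and Jun are also early response genes that rise when cells are isolated. The list of 10 such genes, 6 of them called higher and 3 lower, had sums of 9200 to 18901 normalized counts per monocyte sample and of 16403 to 30318 per sample of Kupffer cells. The part of cell isolation in these values was not tested.

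Smad7 is also induced by other signals, and of 7 genes of such inducers 3 were called higher and none lower in Kupffer cells, against 35.1% higher and 21.4% lower of all genes, with a median log2 fold change of 0.23 against 0.05 (3 higher and 2 lower after rescaling to the median gene). Ifng, the gene of interferon gamma, rose from 26.4 ± 4.61 normalized counts in monocytes to 314 ± 41.1 (SD, n = 6 each; log2 fold change 3.53, limma adjusted p = 2.07e-10). Tnf, the gene of tumor necrosis factor, had a log2 fold change of 1.26 (limma adjusted p = 0.000118). Il1b, Nfkb1, Rela and Relb did not pass the test. Smad7 itself was called lower in Kupffer cells, and the part of these 7 genes in its level was not tested. Ifng is also 1 of the 11 T and NK cell genes whose sums are given above, and the part of such cells in its level was not tested.

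To find genes with a like profile, the log2 values of each gene were centred and the root mean square difference over the 12 samples was taken among the 167 genes that exceeded the background of 9 or more lanes. Tgfb1 was nearest to Il10rb, Grb2 and Nfkb1 (0.12, 0.13 and 0.14, against a median of 0.49 over all genes compared), none of which passed the test between the cell types. Tgfb2 was nearest to Alox15, Cxcl2 and Cxcl1 (0.49, 0.74 and 0.95, median 2.82), whose log2 fold changes were -5.00, -4.81 and -4.69. Because the centring ran over both cell types, a gene with so large a change can be near only to genes with a like change. Alox15, a lipoxygenase gene, belongs to the peritoneal macrophage list whose sums separate the cell types in the same direction as Tgfb2, and the part of such cells in the level of Tgfb2 was not tested. Platelet genes, which could also accompany a blood sample, had sums of 208 to 374 (monocytes) and 96.7 to 220 (Kupffer cells) over the 3 of them on the panel. These 3 did not go the same way. On the deposited scaling Alox12 was lower in Kupffer cells (log2 fold change -3.35), Pdgfa was called higher (0.70) and Tbxa2r did not pass the test (0.32). Tgfbr1 was nearest to Tcf4, Atf2 and Bcl6 (0.19, 0.19 and 0.20, median 0.52), and Smad7 to Tnfaip3, Grb2 and Mef2d (0.22, 0.22 and 0.23, median 0.62). Tgfb3 was at the background in too many samples for this comparison.

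Within the monocytes, Tgfb2 and Smad7 varied in opposite directions from pool to pool. The lowest Tgfb2 values were those of samples 5 and 3, which had the highest Smad7 values, and sample 6 had the highest Tgfb2 and the lowest Smad7. Over the 6 samples Pearson's r was -0.96 (exact permutation p = 0.00278, adjusted over the 9 relations computed 0.025) and Spearman's rank correlation -0.94 (exact permutation p = 0.0167, adjusted 0.15). Without the 2 samples farthest from the median of Tgfb2, r was -0.90 over the remaining 4. The relation was examined after the values had been seen, and only r passed the correction. No other of the 9 relations passed it, the nearest being Tgfb1 with Smad7 at r = 0.93 (exact permutation p = 0.0167, adjusted 0.0708), which fell to 0.47 without the 2 samples farthest from the median of Tgfb1.

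The same monocyte pools also differed in genes of other cells. T and NK cell genes summed to 1076, 1207, 1250, 890, 1226 and 806 normalized counts in samples 1 to 6, the same order of samples as for Smad7. These sums include values listed at the background, for 4, 0, 4, 4, 4 and 5 of the 11 genes in samples 1 to 6. The order among samples 2, 3 and 5, whose sums lie close, depends on those listed values. Cd4 had the largest part in the sums, with a mean of 524 in monocytes. The sums of the platelet genes followed the order of Smad7 too, at 294, 357, 374, 277, 364 and 208, so it was not particular to the T and NK cell genes. That order was set mostly by Alox12 (mean 228 in monocytes). Pdgfa had a mean of 63.1 and Tbxa2r one of 21.3, with 4 samples at the background. Peritoneal macrophage genes summed to 32078, 28946, 25342, 36033, 30888 and 40852, highest in samples 6 and 4, as Tgfb2 was. The part of these cells in the relation was not tested.

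**Figure D4:**
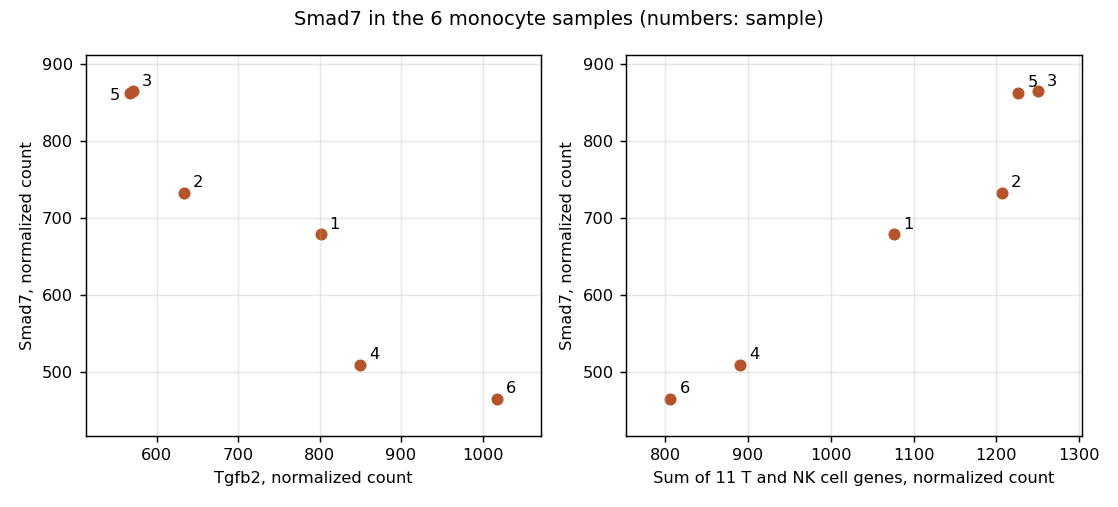
Smad7 normalized count in the 6 monocyte samples against that of Tgfb2 (left) and against the summed normalized counts of 11 T and NK cell genes (right), on linear axes that do not start at 0. Each point is 1 sample with its number. Samples 3 and 5 have the highest Smad7 and the lowest Tgfb2, and samples 4 and 6 have the lowest Smad7 and the lowest sums of T and NK cell genes.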

How the data were processed

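Per the labels and the study's methods, the deposited values are a signal: reporter counts normalized by the authors with nSolver 4.0. A lane factor came from positive controls and housekeeping genes, and the background was the highest of 8 negative controls. The factor was recovered from the table, where each value over the background was a whole multiple of it (within 0.02). In 5 monocyte lanes, values that the factor would bring under the listed background are also listed at it. Housekeeping and control probes were left out of the tests, and 0 columns lacked a sample.

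The fit used limma 3.58.1 (R 4.3.3) with log2(value + 1) as the response, over all 248 genes (two-sided, Benjamini-Hochberg, threshold 0.05). A fold is the ratio of 2 geometric means of value + 1. Exact permutation tests ran in Python 3.11.15. The limma fit was tested on simulated data, with changes added only to genes above the background in all samples. The permutation tests and the listing of background values were not simulated.

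The TGF-β genes and all gene lists were chosen with earlier results of these data known. Named are the TGF-β genes, up to 5 called genes with the largest change per pathway list, the 3 nearest profiles, and markers, of which 2 pathway genes are not reported here. Alternatives concerned pseudocounts, a filter on low values, scaling, the background, a replicate block, the variance model and each sample left out.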

Additional observations from a re-analysis of the deposited data

How the results depend on the processing

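No log2 fold change of a TGF-β gene changed sign under the 22 alternatives of the fit, and no ratio under the 16 tried for ratios. Some of these could not change a sign. The filter, the replicate block, the variance model and an exact permutation test in place of limma leave the log2 fold change as it is. The background at its upper limit moved only that of Tgfb2. The balance of called genes did turn. With the deposited scaling 87 genes were called higher and 53 lower (62.1% higher), against 68 and 108 (38.6%) after rescaling to the median gene, 63 and 69 (47.7%) after quantile normalization and 86 and 86 without monocyte sample 2, the lane with the lowest background. Rescaling to the median gene moved the median log2 fold change of all genes by -0.26, a filter that kept genes measured in 6 or more of the 12 samples by 0.22, the background at its upper limit by 0.15 and scaling without Gapdh by 0.10. In the first of these and under quantile normalization Tgfb1 came to be called (-0.47 and -0.30) and Tgfbr1 lost its call (0.29 and 0.085). Scaling without Gapdh ended the call of Smad7 (-0.44). The cause was not tested. Over all alternatives the limma adjusted p ran from 0.0208 to 0.556 for Tgfb1, from 0.00368 to 0.570 for Tgfbr1 and from 0.00103 to 0.0810 for Smad7.

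Leaving out each sample in turn gave log2 fold changes of -0.27 to -0.14 for Tgfb1, -5.51 to -5.19 for Tgfb2, 0.88 to 1.15 for Tgfb3, 0.45 to 0.64 for Tgfbr1 and -0.64 to -0.45 for Smad7 (limma adjusted p 0.00699 to 0.0531), with 76 to 88 genes called higher and 46 to 86 lower. No pairing of the groups by sample number was evident: deviations of same-numbered samples over 160 genes correlated at -0.23 to 0.40. Of the 6 monocyte samples, 2 correlated best with their own number. These correlations cannot show whether same-numbered pools were prepared together. With the number as a replicate block, 83 genes were called higher and 49 lower, and no TGF-β gene changed its call (limma adjusted p of Smad7 0.0152, Tgfbr1 0.0284, Tgfb3 0.00859). Depth limits Tgfb3 in both cell types and Tgfb2 in Kupffer cells, which stood at or near the background.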
